A study of Homo sapiens with 3 samples.

Results

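The BTG/TOB genes and their deadenylase partners were described in HCT116, a cell line from a human colorectal carcinoma, after knockdown of PRMT1, the main asymmetric arginine methyltransferase of human cells. The genes were BTG1, BTG2, BTG3, TOB1, TOB2, CNOT7 and CNOT8, and every non-control array probe that carries 1 of these names was taken, whatever its value. This gave 7 genes with 9 probes, of 41749 gene names and 58201 non-control probes on the array. BTG1 and CNOT7 had 2 probes each and the other genes had 1.

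BTG and TOB proteins are small antiproliferative proteins that share a conserved N-terminal domain. Through this domain they bind CNOT7 and CNOT8, the paralogous CAF1 nucleases of the CCR4-NOT complex, and so bring the complex that shortens poly(A) tails to messenger RNAs. BTG1 and BTG2 also bind PRMT1 and were first linked to it as partners that alter its activity, and BTG2 is in addition a classical transcriptional target of p53, which is intact in HCT116 cells.

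Total RNA came from HCT116 cells under 3 treatments, named PRMT1-NC (a negative control), PRMT1-KD1 and PRMT1-KD2 (both knockdowns of PRMT1), written here NC, KD1 and KD2. The labels give a pair of small interfering RNAs (siRNAs) against PRMT1, delivered by lipid transfection, and do not state which of them is KD1 and which is KD2, nor the time after transfection. The study's methods give siRNAs too, whereas its results text speaks of short hairpin RNAs, so the reagent is not settled here. Each RNA was labelled with Cy3 and hybridised to 1 Agilent array with probes of 60 bases. With 1 array per group no difference has a replicate check, so no test was made and no p-value is given, and both knockdowns are set against the same NC array.

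Of the usable non-control probes, between 40.7% and 42.3% were well above background on an array, and no spot was saturated. The 75th percentile of log2 intensity, to which levels are scaled, was 6.87 on NC, against 7.26 on KD1 and 6.97 on KD2, so the KD1 array was the brightest before scaling. KD1 also had more spots marked as non-uniform, 141 against 6 on NC and 5 on KD2. No probe of the 7 genes was among the marked spots, and the part of this difference in the KD1 values was not tested. Among markers of colorectal epithelium, 6 of 7 were above background on all 3 arrays, and VIL1 was not above background on any. Among markers of leukocytes, endothelium, fibroblasts and muscle, 3 of 7 (VWF, COL1A1 and DES) were above background on all arrays, at normalized log2 levels between -1.50 and 2.12, and CD3E, PECAM1 and COL1A2 were not above background on any. PTPRC was above background on 1. In RNA from a whole culture, fewer cells that express a gene cannot be told apart from less RNA per cell.

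The oligonucleotides are shown first, in lower case and from 5′ to 3′. They are the siRNAs that the labels name, the PRMT1 probe that reads the knockdown, and the probes of BTG1, past 1.5-fold higher in KD1, and of TOB1, past 1.5-fold lower in KD1. The PRMT1 probe lies in hg19 at chr19:50188248-50189362 on the plus strand, where its bases extend over an intron, so it joins exon sequence across a splice junction. The BTG1 probe lies at chr12:92538126-92538185 and the TOB1 probe at chr17:48940498-48940557, both on the minus strand and each within a single exon.
PRMT1 siRNA-1: cugaaguccaggucgauggugaaguc
PRMT1 siRNA-2: uuguagucuuuguacugcc
PRMT1 probe A_23_P39088: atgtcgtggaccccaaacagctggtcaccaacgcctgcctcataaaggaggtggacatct
BTG1 probe A_22_P00013430: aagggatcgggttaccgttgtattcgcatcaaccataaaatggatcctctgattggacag
TOB1 probe A_23_P164179: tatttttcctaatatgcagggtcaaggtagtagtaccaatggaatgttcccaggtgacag

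The targeted gene was examined first. The normalized PRMT1 level, which is the log2 intensity minus the 75th percentile of its array, was 6.01 on NC, against 2.75 on KD1 and 1.45 on KD2. The PRMT1 signal was thus 10.4% of that of NC in KD1 and 4.24% in KD2. It was lower in both knockdowns, and 2.46-fold lower in KD2 than in KD1.

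The 9 probes of the BTG/TOB, CNOT7 and CNOT8 genes were well above background on all 3 arrays, and each was spotted once per array. In the plot of their levels, the KD1 and KD2 points of BTG1, BTG2, BTG3 and TOB2 lie above the NC point, the KD1 point of TOB1 lies below it, and the KD2 points of CNOT7 lie below it.

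**Figure D1:**
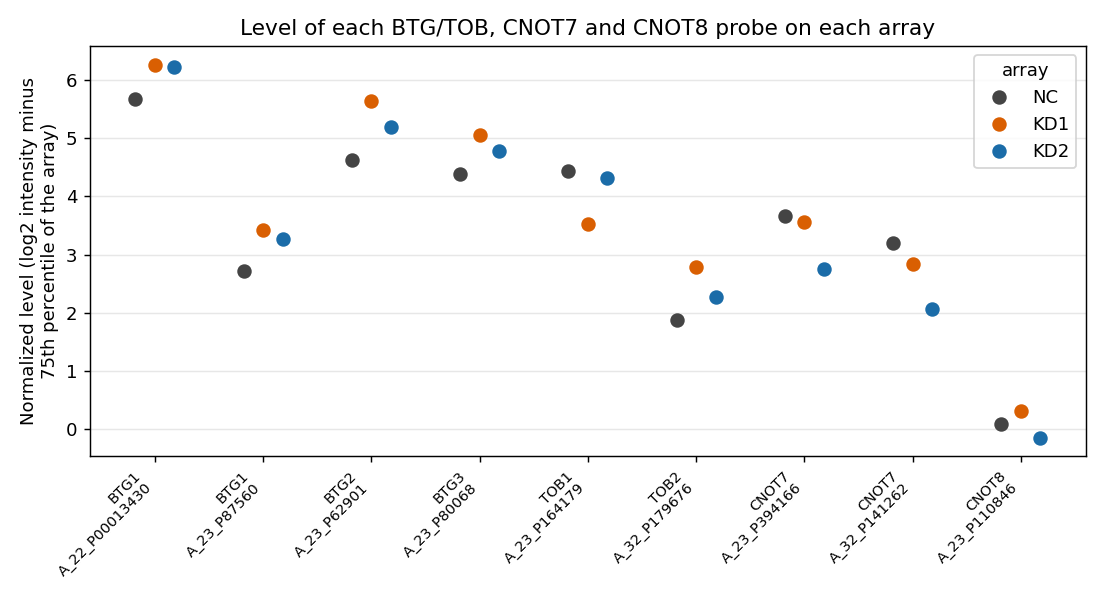
Normalized level (log2 intensity minus the 75th percentile of the array, y axis) of each of the 9 probes (x axis) on the NC, KD1 and KD2 arrays, 1 point per array and no error bar because each group had 1 array. Levels can be compared within a probe and not between probes; the BTG2 points run from 4.62 on NC to 5.19 on KD2 and 5.64 on KD1.

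The PRMT1-binding genes BTG1 and BTG2 were taken first. BTG1, first found at a chromosome translocation of a B-cell leukaemia, had a processed intensity of 5961 on NC, against 11791 on KD1 and 9386 on KD2 at its brighter probe. After scaling, its level was 5.67 on NC, against 6.27 on KD1 and 6.23 on KD2. The knockdown arrays lay close together and above NC, with BTG1 1.51-fold higher in KD1 and 1.47-fold higher in KD2. The dimmer BTG1 probe, A_23_P87560, matches the same transcript (NM_001731) 578 bases further towards its 3′ end, at chr12:92537548-92537607. Its level was 2.72 on NC, against 3.42 on KD1 and 3.27 on KD2. It read in the same order of arrays, 1.63-fold higher in KD1 and 1.47-fold higher in KD2. The pixels within its spot varied by 15.9% to 18.2% (coefficient of variation). This was at or above the 87.4th percentile of probes of like brightness on every array.

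BTG2 was read by 1 probe (A_23_P62901, transcript NM_006763, chr1:203278454-203278513, plus strand). Its processed intensity was 2868 on NC, against 7626 on KD1 and 4578 on KD2, and its level was 4.62, 5.64 and 5.19 in that order. BTG2 was 2.03-fold higher in KD1 and 1.49-fold higher in KD2, past 2-fold in KD1. Taking the brightest probe of each, no other of the 7 genes was past 2-fold in either knockdown. In KD1, 4.22% of all genes measured were further up than BTG2, and in KD2 9.93% were.

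BTG3, the member that is also known as a p53 target and binds E2F1, was read by 1 probe (A_23_P80068, NM_006806, chr21:18966060-18966119, minus strand). Its level was 4.39 on NC, against 5.06 on KD1 and 4.79 on KD2. KD1 lay highest, 1.59-fold above NC, and KD2 lay between, 1.32-fold above NC. In KD1 10.6% of genes were further up, and in KD2 17.0% were.

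The paralogs TOB1 and TOB2, which carry motifs for the cytoplasmic poly(A)-binding protein beside the shared domain, differed in direction in KD1. TOB1 (A_23_P164179, NM_005749) had a processed intensity of 2537 on NC, against 1763 on KD1 and 2507 on KD2. Its level was 4.44 on NC, against 3.53 on KD1 and 4.32 on KD2, so that KD1 stood apart. TOB1 was 1.89-fold lower in KD1 and 1.09-fold lower in KD2. Of all genes, 4.40% were further down than TOB1 in KD1.

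TOB2 (A_32_P179676, NM_016272, chr22:41829745-41829804, minus strand) had a processed intensity of 429 on NC, against 1049 on KD1 and 601 on KD2. Its level was 1.88 on NC, against 2.78 on KD1 and 2.26 on KD2. TOB2 was 1.87-fold higher in KD1, where 5.76% of genes were further up, and 1.31-fold higher in KD2. Between KD1 and KD2 the log2 difference was -0.79 for TOB1 and 0.52 for TOB2.

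The deadenylase CNOT7 was read by probes to 2 of its transcripts, A_23_P394166 (NM_013354, chr8:17086885-17086944) and A_32_P141262 (NM_054026, chr8:17092251-17092310), both on the minus strand. At the brighter probe the level was 3.67 on NC, against 3.56 on KD1 and 2.76 on KD2. At the dimmer probe it was 3.20 on NC, against 2.84 on KD1 and 2.07 on KD2. KD2 lay lowest at both. CNOT7 was 1.89-fold lower in KD2 at the brighter probe and 2.19-fold lower at the dimmer one, and 1.08-fold and 1.29-fold lower in KD1. In KD2, 3.22% of all genes were further down than CNOT7 at its brighter probe.

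CNOT8, the paralog of CNOT7, was read by 1 dim probe (A_23_P110846, NM_004779, chr5:154255813-154255872, plus strand). Its processed intensity was 124 on NC, against 190 on KD1 and 113 on KD2, and its level was 0.08, 0.31 and -0.15. KD1 lay above NC and KD2 below it, by 0.23 and -0.23 on the log2 scale. The pixels within its spot varied by 23.2% to 27.1% (coefficient of variation), at or above the 91.1th percentile of probes of like brightness on every array.

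The changes were then counted at the 1.5-fold threshold of the study's methods, with the share of all genes past it as the background. Those methods also set a p-value cut, which could not be applied here, so the counts are not the study's calls. In KD1, 4 of the 7 genes were higher (BTG1, BTG2, BTG3 and TOB2), where 13.2% of 19231 genes were higher. In KD1, 1 of 7 was lower (TOB1), where 12.8% of genes were lower. In KD2, 0 of 7 were higher, where 9.56% of 19421 genes were higher, although BTG1 and BTG2 lay just inside the threshold, which is 0.58 on the log2 scale, with changes of 0.55 and 0.57. In KD2, 1 of 7 was lower (CNOT7), where 10.7% of genes were lower. BTG1 in KD1, at 0.59, lay just past the threshold.

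The median log2 change of the 5 BTG/TOB genes was 0.67 in KD1, against -0.04 over all genes, and 0.40 in KD2, against -0.05 over all genes. In the plot of both changes, BTG1, BTG2, BTG3 and TOB2 lie to the upper right, and no other of the 7 genes does. Because the NC array enters both axes, a NC value that stood low or high would move a gene along the diagonal.

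**Figure D2:**
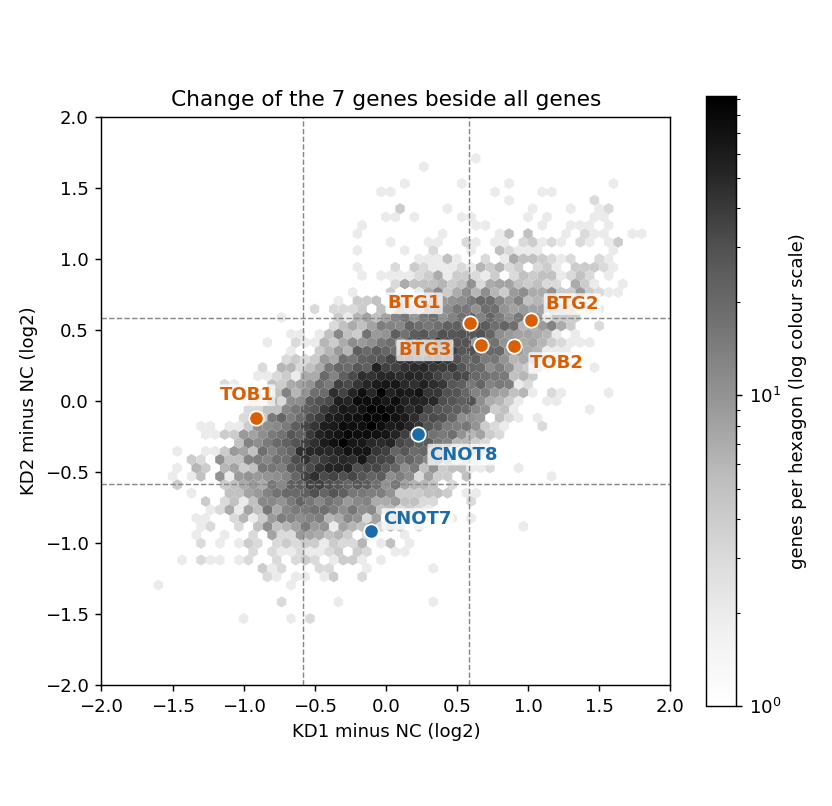
Change in KD1 against NC (x axis, log2) and in KD2 against NC (y axis, log2) of the 5 BTG/TOB genes (orange) and of CNOT7 and CNOT8 (blue), over a hexagon density of 17054 genes detected on every array, of which 30 lie outside the plotted range. Dashed lines mark 1.5-fold; BTG2, at 1.02 and 0.57, lies farthest to the upper right of the 7 genes.

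KD1 and KD2 were also compared with each other, which does not use the NC array. CNOT7 was 1.75-fold higher in KD1 than in KD2, 1 of 7 genes past the threshold in this direction, where 9.84% of 19544 genes were. TOB1 was 1.73-fold lower in KD1 than in KD2, 1 of 7 in the other direction, where 8.85% of genes were. The remaining 5 genes differed by between 0.04 (BTG1) and 0.52 (TOB2) on the log2 scale, each higher in KD1, where the median over all genes was 0.02. The BTG1 difference had no stable sign. Under the other ways of processing given below it ran from -0.08 to 0.37, above 0 in 10 of 13.

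The spread between KD1 and KD2 was the only error available for a whole array. Across the 17054 genes detected (well above background) on every array, the robust SD of KD1 minus KD2 was 0.38 log2 units, and over 1000 genes of like brightness it was 0.25 for BTG1, 0.29 for BTG2, 0.30 for BTG3, 0.36 for TOB2, 0.31 for TOB1, 0.35 for CNOT7 and 0.44 for CNOT8. This spread holds differences between the knockdowns as well as array error. Both CNOT8 changes, the KD2 change of TOB1 and the KD1 change of CNOT7 lay inside it. The KD2 changes of BTG3 (0.40) and TOB2 (0.38) exceeded it by less than 0.1 log2 units. The NC array does not enter this spread, so a change larger than it is not thereby shown to exceed array error.

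The changes were recomputed with 13 other ways of processing the arrays, among them spike-in scaling, which sets the arrays to 8 probes for RNA added during labelling. These 13 are not 13 separate checks. All members were detected on every array, so changing or dropping the filter returned the reported values. The mean over probes did so too for genes with 1 probe, and keeping marked spots gave nearly the values of the scaled series matrix. BTG1, BTG2, BTG3 and TOB2 lay above NC in both knockdowns in 13 of 13, whether or not past 1.5-fold. The share of all genes above NC in both knockdowns was not computed, and the same NC array enters both changes. BTG2 ranged from 0.89 to 1.64 in KD1 and from 0.42 to 0.87 in KD2, and TOB2 from 0.67 to 1.52 and from 0.24 to 0.68. TOB1 was lower in KD1 in 13 of 13, from -0.99 to -0.29, and past 1.5-fold in 11. CNOT7 was lower and past 1.5-fold in KD2 in 13 of 13, from -1.06 to -0.62. BTG1 in KD1 was past 1.5-fold in 9 of 13, with values from 0.52 to 1.22. The small changes of TOB1 and CNOT8 in KD2 and of CNOT7 in KD1 lay above NC with spike-in scaling, and that of CNOT7 in KD1 also with the unscaled series matrix, settings that move all genes alike. CNOT8 in KD1 was below NC once a trend with GC content and brightness was subtracted.

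Spike-in scaling moved the median of all genes by 0.62 log2 units in KD1 and by 0.29 in KD2. Both this scaling and the percentile subtract 1 value from each array, so changes relative to the median are the same by construction. Relative to that median, BTG2 was 1.06 higher in KD1 and 0.62 higher in KD2, and CNOT7 was lower by a log2 value of -0.87 in KD2. The small changes were at -0.06 for CNOT7 in KD1, -0.07 for TOB1 in KD2 and -0.18 for CNOT8 in KD2 relative to it. Over the 12 alternatives with an all-gene median, CNOT8 in KD2 lay from -0.22 to -0.09 relative to it, and CNOT8 in KD1 from 0.11 to 0.44. Under this scaling 49.5% of all genes were higher and 1.88% lower in KD1, and 22.6% were higher and 3.63% lower in KD2. The unscaled series matrix values gave 32.4% higher and 3.60% lower in KD1, and 13.4% and 7.44% in KD2. Median scaling gave 16.5% and 9.61% in KD1, and 6.05% and 18.1% in KD2. A percentile over the probes detected on every array gave 11.0% and 16.4% in KD1 and 11.4% and 8.78% in KD2, and normexp background correction gave 9.10% and 4.64% in KD1 and 4.13% and 4.98% in KD2.

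**Figure D3:**
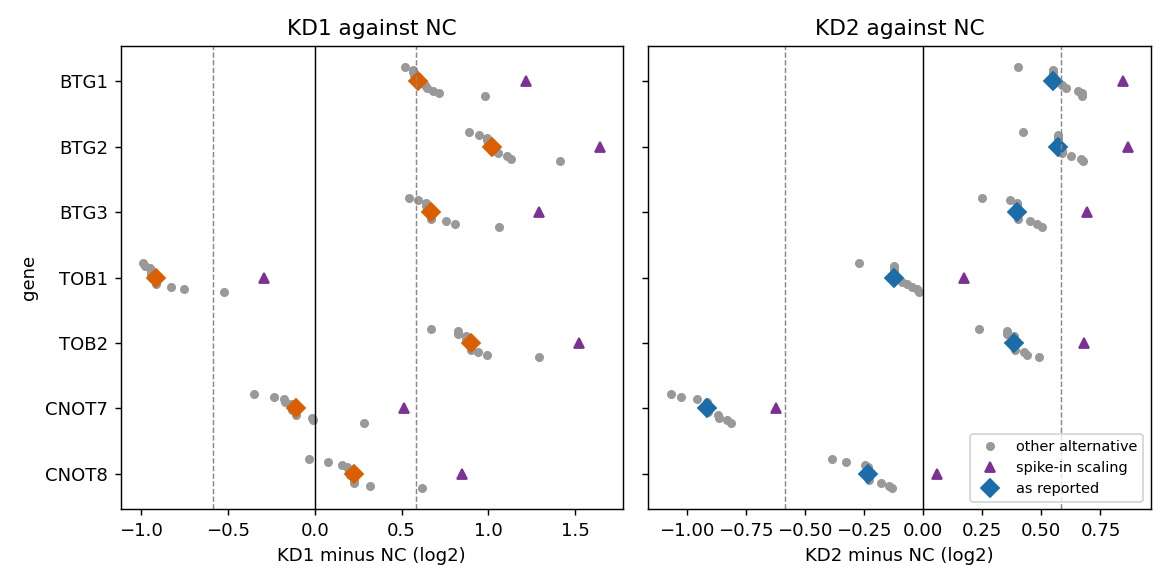
Log2 change against NC (x axis) of each gene (y axis) in KD1 (left) and KD2 (right), as reported (diamond), with spike-in scaling (triangle) and with each of the other 12 alternatives (grey points, spread vertically so that they can be seen). Dashed lines mark 1.5-fold; BTG1, BTG2, BTG3 and TOB2 stay to the right of 0 in both panels, whereas TOB1 and CNOT8 in KD2 and CNOT7 and CNOT8 in KD1 have points on both sides of it, those with spike-in scaling being moved with the median of all genes by 0.62 in KD1 and 0.29 in KD2.

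The promoters of BTG1 and BTG2, the PRMT1-binding genes, which lay above NC in both knockdowns and past 1.5-fold in KD1 alone, were taken from RefSeq (GRCh38.p14), as the 250 bases before the annotated start. The BTG1 window is chr12:92145847-92146096 on the minus strand and the BTG2 window chr1:203305269-203305518 on the plus strand. Capitals mark 3 motifs on either strand, which do not overlap here: CCAAT (or ATTGG), the box bound by NF-Y, TGACG (or CGTCA), the core of the cAMP response element, and TATAAA (or TTTATA), the TATA box.
BTG1 promoter: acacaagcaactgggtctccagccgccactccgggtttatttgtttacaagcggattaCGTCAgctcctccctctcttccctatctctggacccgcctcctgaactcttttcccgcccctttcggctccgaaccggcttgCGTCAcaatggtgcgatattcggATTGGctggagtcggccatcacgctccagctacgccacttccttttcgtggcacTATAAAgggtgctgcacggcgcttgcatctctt
BTG2 promoter: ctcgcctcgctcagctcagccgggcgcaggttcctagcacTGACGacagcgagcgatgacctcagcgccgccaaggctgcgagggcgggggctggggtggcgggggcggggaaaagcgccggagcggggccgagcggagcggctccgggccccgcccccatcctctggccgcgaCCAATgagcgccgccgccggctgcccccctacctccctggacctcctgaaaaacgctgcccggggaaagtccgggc

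Promoters of 6 of the 7 genes were in the table. CCAAT was found in 3 of them (BTG1, BTG2 and TOB1), against 32.0% of 35116 promoter windows of this length. In BTG1 it lay 83 bases and in BTG2 72 bases before the start. TGACG was found in 4 (BTG1, BTG2, TOB1 and CNOT8), against 21.2% of windows, and TATAAA in BTG1, against 10.7%. TOB1 and CNOT8 have more than 1 annotated start, which gives them more windows in which to hold a motif. The genes with CCAAT and TGACG moved both ways in KD1, BTG1 and BTG2 being higher and TOB1 lower. A match describes these letters only.

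Other genes of the pathway were taken from 4 lists, and their counts are read against the shares of all genes given above, 13.2% higher and 12.8% lower in KD1, and 9.56% higher and 10.7% lower in KD2. The medians over all genes were -0.04 in KD1 and -0.05 in KD2. Of 10 further CCR4-NOT subunits, all measured, 0 were past 1.5-fold higher and 1 lower in each knockdown, with a median log2 change of 0.01 in KD1 and -0.23 in KD2. The lower 1 was CNOT6L, a nuclease of the CCR4 type that works beside CNOT7 or CNOT8, at 1.25 on NC, against 0.48 on KD1 and 0.43 on KD2. It was 1.71-fold lower in KD1 and 1.77-fold lower in KD2, and its second probe read in the same direction by -0.32 and -0.46. CNOT1, the scaffold that holds CNOT7 and CNOT8, differed from NC by 0.19 in KD1 and by -0.28 in KD2.

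Of 11 genes for PAN2-PAN3, PARN and the poly(A)-binding proteins, 2 were higher in KD1 and 1 in KD2, and 0 were lower. PAN3, the adaptor of the nuclease that starts poly(A) shortening, was higher in both. It was not well above background on NC, and entered these counts only through its detection on the knockdown arrays. Against its own undetected NC value it was 4.10-fold higher in KD1 and 2.49-fold higher in KD2. These folds are not bounds and are uncertain in both directions. Its second probe was not above background on any array. PAIP2, a repressor of poly(A)-binding protein, was 1.59-fold higher in KD1, with a log2 change of -0.10 in KD2.

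Of 11 genes for decapping and 5′ to 3′ decay, 2 were higher in KD1 and 1 in KD2, with 0 lower, counts higher that lie near the background. LSM14A, a P-body protein, was higher in both, by 0.71 and 0.59 on the log2 scale, whereas its second probe changed by -0.13 and 0.87. XRN1, the 5′ to 3′ exonuclease, differed from NC by 0.65 in KD1 and by 0.39 in KD2. The median change of this list was 0.43 in KD1 and 0.25 in KD2.

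Of 15 genes for proteins that recruit CCR4-NOT, 12 were measured, with 3 higher and 1 lower in each knockdown. The higher genes were not all the same, being CPEB3, CPEB4 and TNRC6C in KD1 and ZFP36, CPEB4 and TNRC6C in KD2. ZFP36 was 1.39-fold higher in KD1 and 1.73-fold higher in KD2. CPEB3 entered these counts only through its detection on the knockdown arrays. CPEB4, a cytoplasmic polyadenylation element-binding protein, was at 0.10 on NC, against 1.82 on KD1 and 1.48 on KD2, or 3.30-fold and 2.61-fold higher. The GW182 genes of the microRNA pathway split. TNRC6B was 1.93-fold lower in KD1 and 1.98-fold lower in KD2, TNRC6C was 2.09-fold and 1.56-fold higher (its second probe by 0.20 and 0.95 on the log2 scale), and TNRC6A changed by 0.01 and -0.09. CPEB3, which TOB1 is known to link to CNOT7, was not above background on NC and was at least 1.78-fold higher in KD1 and at least 1.47-fold higher in KD2.

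**Figure D4:**
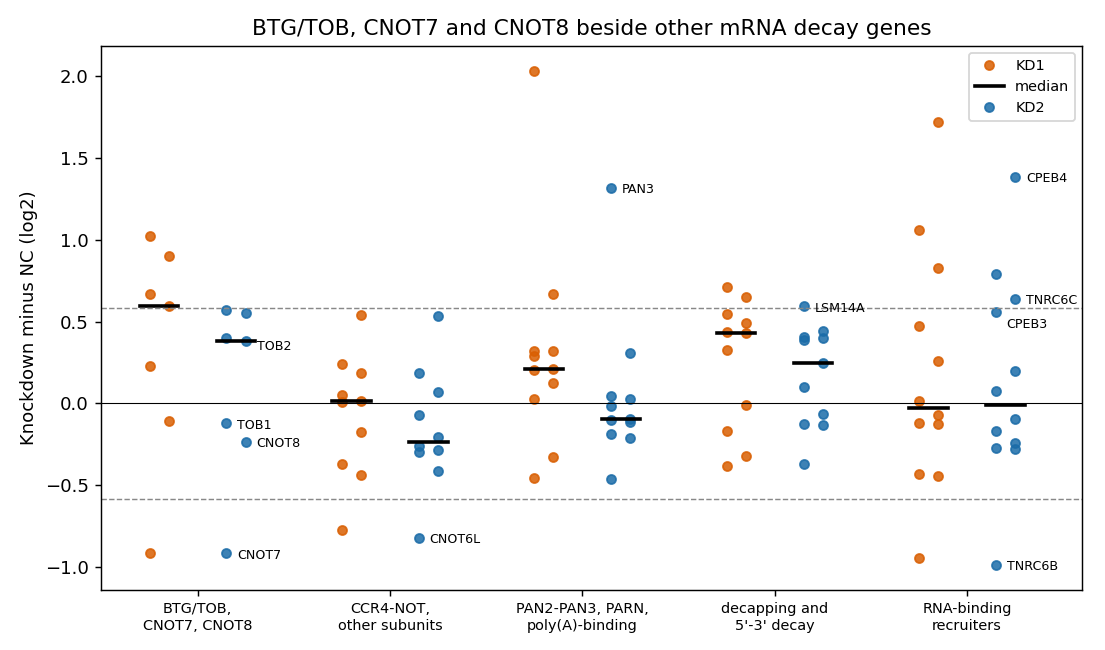
Log2 change against NC (y axis) of the 7 genes and of the measured genes of the 4 pathway lists (x axis), 1 point per gene, in KD1 (orange) and KD2 (blue), with the median of each as a black bar and dashed lines at 1.5-fold. The bar of the 7 genes stands at 0.59 in KD1 and 0.38 in KD2, and that of the other CCR4-NOT subunits at 0.01 and -0.23.

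BTG4, the remaining gene of the family and known from oocytes, was not above background on any array. CCND1, the cyclin D1 gene that BTG and TOB proteins are known to repress, was at 3.45 on NC, against 3.92 on KD1 and 3.60 on KD2, a log2 change of 0.48 and 0.15. It was past 1.5-fold in neither knockdown. BTG2 had the largest mean size of change of the 7 genes, 0.80 log2 units. Over the 3 arrays, the genes with the pair of changes closest to its own, among 12555 genes with a RefSeq symbol and detected on every array, were ADPGK, KLHL9, TMEM79, RNF19A and PPP1R12B. Their distances were 0.01 to 0.02 log2 units, and 240 genes lay within 0.2, so many genes share this pair of values.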

How the data were processed

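RNA of HCT116 cells was measured on 3 1-colour Agilent arrays (NC, KD1 and KD2), all on 1 slide and read in 1 scan. Per the submitters' processing notes, the deposited scanner files came from Agilent Feature Extraction 10.7.1.1. Per the file headers, their processed intensity was corrected for background within each array, with no scaling between arrays. The authors also deposited a series matrix with the mean of this intensity for each probe, unscaled too, which served as an alternative. Probe positions are in hg19. The study's second control and its SMARCA4 knockdowns were not analysed here.

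Control spots and spots marked non-uniform or population outliers were left out, which removed 130 probes. Spots of a probe were averaged as log2 intensity. The 75th percentile of the non-control probes of an array was then subtracted from it. Spots repeated on an array had a median SD of 0.038 to 0.049 log2 units, which covers spot error only. The probe with the highest mean level stood for its gene. A comparison included a gene when that probe was detected, that is well above background, on either array. Where it was not detected, its value was its own or, if higher, the lowest normalized level of any detected probe on that array. Only where that lowest level was used is the fold a lower bound. Unnamed probes (1505) were left out of gene counts. The fold threshold was 1.5. No test was possible with 1 array per group, and the number of arrays limits the precision.

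The 7 genes and the pathway lists were chosen with earlier results of these data known, so their counts are descriptions. Genes named were the 7, PRMT1, BTG4, CCND1, list genes past 1.5-fold in 1 direction in both knockdowns or needed to describe a complex, and the 5 genes nearest to the member with the largest mean change. CPEB3, PAIP2, XRN1 and ZFP36 were named after their values were seen.

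Alternatives were normexp correction (offset 50), quantile and median scaling, a percentile over probes detected on every array, scaling to 8 E1A spike-in probes, the series matrix scaled and unscaled, a filter to genes detected on both arrays, neither filter nor floor, the mean over a gene's probes, marked spots kept, and a fold of 2. Chosen after seeing the data were a percentile over probes usable on all arrays, and subtraction of a trend, the median of 300 probes alike in GC content (within 2 bases) and brightness. Only the fold calculation was run on simulated arrays, whose changes were well past 1.5-fold and whose noise was below the spread between KD1 and KD2. They began from scaled levels with every gene set as detected. The scaling, the marked spots, the floor and changes near the threshold were therefore not checked. Promoters and names came from RefSeq tables (GRCh38.p14). Software comprised R 4.3.3 with limma 3.58.1, and Python 3.11.15 with pandas 2.3.3, numpy 2.4.6 and matplotlib 3.10.9.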

Additional observations from a re-analysis of the deposited data

Results flagged for a closer look

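CNOT8 was above NC in KD1 and below it in KD2, with a log2 change of 0.229 in KD1 and -0.234 in KD2. The difference was not tested, since each group had 1 array. Its probe was the dimmest of the 9. The KD1 value was below NC (-0.03) once the trend with GC content and brightness was subtracted. Relative to the median of all genes, CNOT8 was at 0.27 in KD1 and -0.18 in KD2. Spike-in scaling and the percentile give the same values here by construction.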

How the results depend on the processing

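Of 84 counts of the 7 genes past the fold under 14 alternatives, 65 remained within 1.5 times the reported count and 19 did not, and of 273 single changes 0 of those past 1.5-fold turned their direction and 14 moved by more than the spread between KD1 and KD2, all in KD1 with spike-in scaling or the unscaled series matrix. Against the reported 0, the genes higher in KD2 numbered 2 with normexp correction (4.13% of all genes), quantile normalization (10.2%), the percentile over probes detected on every array (11.4%), the unscaled series matrix (13.4%) and the GC and brightness trend, and 4 with spike-in scaling (22.6%), against 9.56% of all genes as reported. The genes lower in KD1, reported as 1, numbered 0 with spike-in scaling (1.88% of all genes), the unscaled series matrix (3.60%) and the 2-fold threshold. Between KD1 and KD2, the genes higher in KD1 numbered 4 with median scaling (21.2% of all genes) and the unscaled series matrix (24.5%) and 5 with spike-in scaling (27.8%), against 9.84% of all genes as reported, and the genes lower in KD1 numbered 0 under these 3 (3.92%, 3.47% and 3.09%). With the 2-fold threshold, 1 gene was higher in KD1 (BTG2) and 0 were lower in KD2, and 0 differed between KD1 and KD2 in either direction. The share of all genes past 2-fold was not computed, though 4.22% of genes were further up than BTG2 in KD1. The GC and brightness trend was taken for the 7 genes alone, so its counts have no such share either. The cause was not tested, other than that the 2-fold threshold is stricter by construction. Changing or dropping the filter left all 7 genes at their reported values, so the counts under those settings could not move. No paired analysis was possible because each group had 1 array. With 1 array per group, no replicate could be left out, and an effect of the array cannot be told apart from that of the treatment.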

Other observations

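Transcripts named after the same loci were picked out after their values had been seen. TOB1-AS1, antisense to TOB1, was above background on all 3 arrays, with levels of -0.70 on NC, -1.13 on KD1 and -0.70 on KD2. Its KD1 value was the lowest, as that of TOB1 was, though its log2 change of -0.43 in KD1 was not past 1.5-fold. The TOB2 pseudogene TOB2P1 was at 0.13 on NC, 0.40 on KD1 and -0.05 on KD2. Whether its probe also reads TOB2 was not tested. The transcripts lnc-BTG2-2, lnc-BTG3-2, lnc-CNOT7-1, lnc-CNOT8-1 and lnc-TOB1-1 were not above background on any array.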
